A study of Mus musculus with 6 samples.

Results

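The apolipoprotein L (Apol) genes of the mouse form a family whose members lie near each other on chromosome 15, and their expression was compared between colon tumours of 2 genotypes of the DNA methyltransferase gene Dnmt1. The 10 members examined were Apol6, Apol7a, Apol7b, Apol7c, Apol7e, Apol8, Apol9a, Apol9b, Apol10a and Apol10b, selected by gene symbol. They were taken up with the difference between the genotypes already known, Apol10a being among the largest increases on these arrays, so that difference is described for the members with no p-value, and how many passed the threshold used for all genes is given with nothing read from it. Of the 10 members, 6 had a probe set annotated to them alone, among 19938 genes measured in this way. Apol7b and Apol7e were present only on probe sets annotated to both, and so were Apol9a and Apol9b.

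RNA from 6 tumours was hybridised to arrays, 3 tumours from each of 2 genotypes. The mice of both groups were ApcMin/+, heterozygous for the Min allele of the tumour suppressor Apc, on a mixed C57BL/6 and 129Sv4 background, received 2% (w/v) dextran sodium sulfate from 6 weeks of age to injure the colon and promote tumours, and were sampled at 20 weeks. Control tumours were Dnmt1chip/+, with a hypomorphic (chip) and a wild-type allele of Dnmt1, which encodes the enzyme that copies DNA methylation onto new strands. The tumours called hypomethylated were Dnmt1chip/c and combined the chip allele with a knockout allele, written c. Both groups thus carried the chip allele. The sample descriptions give 1 shared number to all 3 hypomethylated tumours and another to 2 of the 3 control tumours. If that number marks an animal, a difference between single mice cannot be told apart from one between genotypes, and all p-values measure only the spread between these tumours.

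Values were taken as log2 values, a base that no label states and that was inferred from the numbers. Each probe set was centred on its median over the 6 arrays, so the values show differences between tumours and keep no level. Where the groups do not overlap, this centring makes the 2 values nearest to each other across the groups mirror each other around 0. In whole tumours fewer cells of a type and less RNA per cell cannot be told apart. Dnmt1 itself lay between 0.37 and 0.52 in the control tumours and between -0.48 and -0.37 in the hypomethylated ones, and fell by 0.87 ± 0.06 (SE) (limma, adjusted p = 0.000313). The position of its probes relative to the changes in these alleles was not examined, so the value is no check of the genotypes. Of all genes 32.0% passed an adjusted p of 0.05, 10.7% as higher and 21.3% as lower in the hypomethylated tumours, and the median difference of all genes was -0.0058. Without control tumour 1 the number of genes passing fell from 6380 to 4199.

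Apolipoprotein L proteins carry amphipathic helices that can insert into membranes. The best known human member circulates in blood and lyses trypanosomes, whereas most others act inside cells, and several are induced by interferons. The mouse family has expanded separately from the human one, and its members include close copies. Type I and type III interferons act through the kinases Jak1 and Tyk2 and a complex that includes Stat2 and Irf9 and binds interferon-stimulated response elements. Many targets of interferon gamma carry gamma-activated sites.

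Apol10a was far higher in every hypomethylated tumour. Its centred values (probe set 10425037) were -1.96, -2.14 and -1.76 in control tumours 1, 2 and 3, and 1.76, 2.91 and 2.71 in hypomethylated tumours 1, 2 and 3. The groups did not overlap, and hypomethylated tumour 1 lay below the other two. Controls averaged -1.95 ± 0.19 (SD, n = 3) against 2.46 ± 0.62 (SD, n = 3), a difference of 4.41 ± 0.29 (SE) on the log2 scale or 21.3-fold, the 7th largest increase among all genes. Leaving out any 1 tumour gave differences from 4.19 to 4.76.

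Apol7a had the next largest difference. Its control values (probe set 10430166) were -1.19, -1.20 and -0.90, and hypomethylated values were 0.90, 0.94 and 1.18. Here all 3 hypomethylated tumours stood close together and well above the controls. The controls averaged -1.10 ± 0.17 (SD, n = 3) against 1.01 ± 0.15 (SD, n = 3), and the difference was 2.11 ± 0.11 (SE), or 4.31-fold, with a range of 2.02 to 2.20 on leaving out 1 tumour.

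Apol6, Apol7c and Apol10b shared another pattern, in which hypomethylated tumour 1 was the highest, as it also was for the probe sets shared by Apol7b and Apol7e. Apol6, whose human counterpart is known as an inducer of cell death, had control values (probe set 10425031) of -0.57, -0.27 and -0.38 and hypomethylated values of 2.04, 0.27 and 0.40. The groups did not overlap, but tumour 1 stood far above the remaining tumours, by 1.71 over the mean of hypomethylated tumours 2 and 3. The difference of 1.31 ± 0.44 (SE), 2.48-fold, became 0.74 without hypomethylated tumour 1 and 1.63 without hypomethylated tumour 2. The RefSeq gene models of Apol6 and its neighbour Mb overlap.

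Apol7c, studied in dendritic cells, had control values (probe set 10430186) of -0.41, -0.28 and -0.23 and hypomethylated values of 1.05, 0.32 and 0.23. The groups were again apart, with tumour 1 highest by 0.77 over the mean of tumours 2 and 3. The difference was 0.84 ± 0.21 (SE), 1.79-fold, and 0.58 without hypomethylated tumour 1. Apol10b, the gene named most like Apol10a, behaved differently from it. Its control values (probe set 10430190) were -0.15, 0.04 and -0.04, and its hypomethylated values 1.37, -0.20 and 0.60. The groups overlapped, because hypomethylated tumour 2 was the lowest of all 6 tumours. Its difference of 0.64 ± 0.35 (SE) became 0.25 without hypomethylated tumour 1 and 1.03 without hypomethylated tumour 2.

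Apol8 hardly differed between the groups. It had control values (probe set 10430195) of 0.02, -0.22 and -0.06 and hypomethylated values of 0.0042, 0.18 and -0.0042. The groups overlapped, and the difference was 0.15 ± 0.09 (SE), 0.08 without control tumour 2 or without hypomethylated tumour 2.

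**Figure D1:**
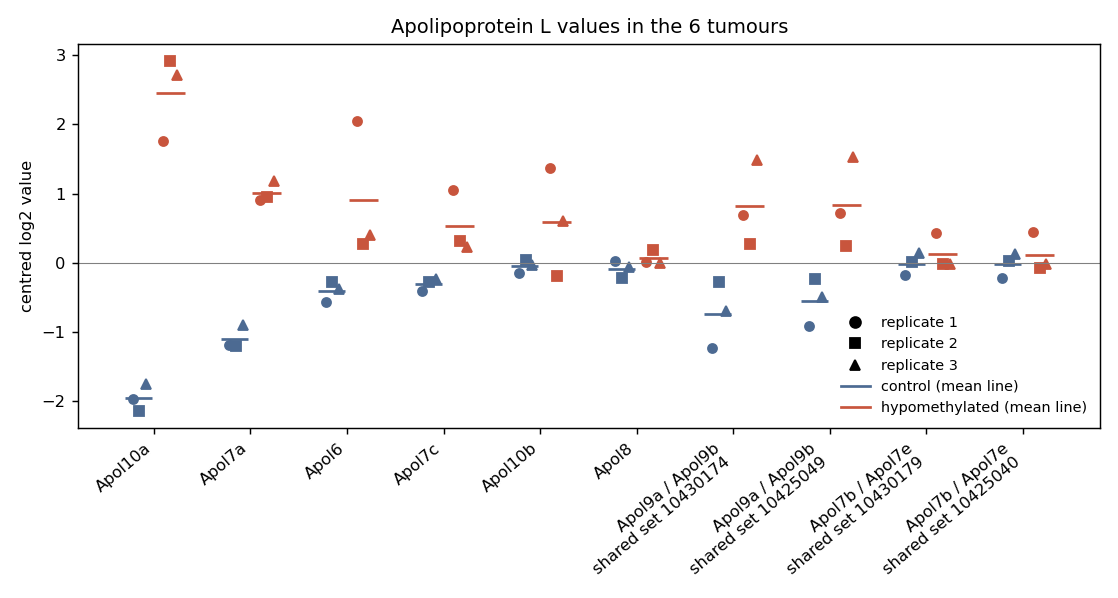
Centred log2 values (vertical axis) of the 6 Apol genes with their own probe set and of the 4 probe sets annotated to a pair of copies, with 1 symbol per tumour and a line at each group mean. Apol10a separates the groups most, from -1.95 to 2.46, while hypomethylated replicate 1 stands highest for Apol6, Apol7c and Apol10b.

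The paired copies were measured by probe sets that cannot separate them. For Apol9a and Apol9b, interferon-induced genes whose proteins bind phosphatidylethanolamine, probe set 10430174 had control values of -1.23, -0.27 and -0.70 and hypomethylated values of 0.68, 0.27 and 1.49. Probe set 10425049 had -0.92, -0.24 and -0.49 against 0.72, 0.24 and 1.53. In both, hypomethylated tumour 3 was the highest, control tumour 1 the lowest, and the groups did not overlap. The differences were 1.55 ± 0.35 (SE) and 1.38 ± 0.33 (SE), or 2.93-fold and 2.61-fold, and without hypomethylated tumour 3 they were 1.21 and 1.03.

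For Apol7b and Apol7e the values of both shared sets lay between -0.22 and 0.44, and the groups overlapped. Probe set 10430179 had -0.18, 0.01 and 0.13 in the controls and 0.43, -0.03 and -0.01 in the hypomethylated tumours. Its difference was 0.14 ± 0.14 (SE), that of probe set 10425040 was 0.14 ± 0.16 (SE), and without hypomethylated tumour 1 both changed sign, to -0.0067 and -0.03. These pairs are close copies, so which of the 2 genes a value belongs to cannot be read from the arrays. Whether the probes of the other members also bind RNA of a paralogue was not tested.

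Of the 6 genes with their own probe set all had a positive difference, with a median of 1.07 against -0.0058 over all genes. Apol10a, Apol7a and Apol7c passed the threshold used for all genes (limma, Benjamini-Hochberg adjusted p of 0.05), 3 of 6 where 10.7% of all genes passed as higher. In 4 of 6 every hypomethylated value lay above every control value, where 17.9% of all genes did so. Both counts repeat the contrast that brought the members together, and nothing is read from them. Apol7c no longer passed without control tumour 1 or control tumour 2, Apol6 also passed without hypomethylated tumour 1, and Apol6 and Apol10b also passed without hypomethylated tumour 2, so that 2 to 5 of 6 passed on leaving out 1 tumour.

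**Figure D2:**
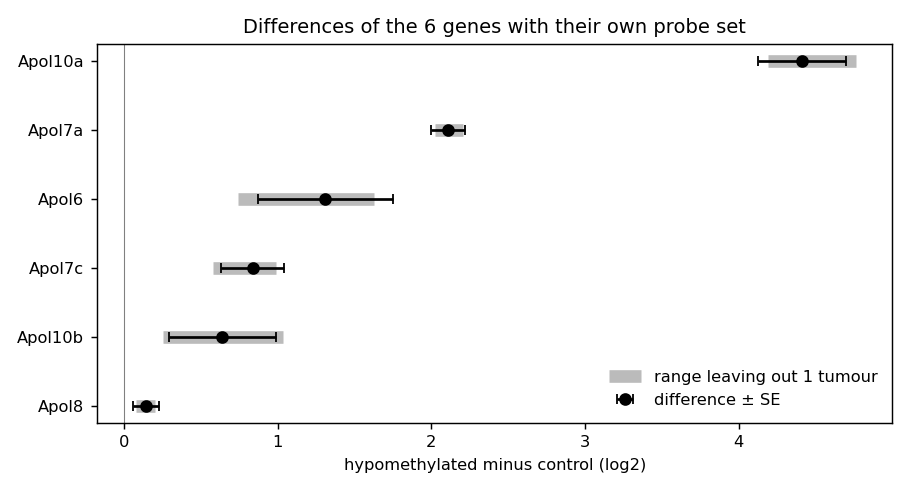
Difference between hypomethylated and control tumours on the log2 scale (horizontal axis) for the 6 genes with their own probe set, with its SE (bars) and the range on leaving out each tumour in turn (grey). Apol10a stays between 4.19 and 4.76 and Apol7a between 2.02 and 2.20, whereas Apol6 runs from 0.74 to 1.63 and Apol10b from 0.25 to 1.03.

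Promoter windows are shown because the members split into the patterns above and sequence played no part in choosing them. RefSeq windows of the GRCm38.p6 assembly, 250 bases before to 50 bases after a transcription start, were found for 9 of the 10 members, not for Apol6, and made 11 windows since Apol9a and Apol9b have 2 each. Capitals mark matches on either strand to the core of the interferon-stimulated response element, searched as TTTC, any 2 bases and TTTC again, and, at the start of the Apol10a window, a match to TTCNNNGAA, the gamma-activated site. The windows are those of Apol10a (chr15:77476797-77477096, forward strand), Apol7a (chr15:77399061-77399360, reverse strand), Apol7c (chr15:77533266-77533565, reverse strand), Apol10b (chr15:77596076-77596375, reverse strand) and Apol9a (chr15:77411031-77411330, reverse strand), each written 5′ to 3′ along its gene.
Apol10a: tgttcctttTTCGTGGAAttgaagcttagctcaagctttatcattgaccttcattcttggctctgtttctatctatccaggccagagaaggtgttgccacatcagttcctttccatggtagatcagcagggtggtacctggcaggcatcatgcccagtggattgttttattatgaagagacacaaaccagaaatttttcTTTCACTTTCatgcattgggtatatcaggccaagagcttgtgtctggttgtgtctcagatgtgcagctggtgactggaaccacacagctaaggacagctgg
Apol7a: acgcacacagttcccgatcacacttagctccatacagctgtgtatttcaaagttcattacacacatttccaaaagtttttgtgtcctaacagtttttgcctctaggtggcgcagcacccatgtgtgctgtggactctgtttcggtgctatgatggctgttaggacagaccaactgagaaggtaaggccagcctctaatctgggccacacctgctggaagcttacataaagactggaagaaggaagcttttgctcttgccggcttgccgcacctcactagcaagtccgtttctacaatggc
Apol7c: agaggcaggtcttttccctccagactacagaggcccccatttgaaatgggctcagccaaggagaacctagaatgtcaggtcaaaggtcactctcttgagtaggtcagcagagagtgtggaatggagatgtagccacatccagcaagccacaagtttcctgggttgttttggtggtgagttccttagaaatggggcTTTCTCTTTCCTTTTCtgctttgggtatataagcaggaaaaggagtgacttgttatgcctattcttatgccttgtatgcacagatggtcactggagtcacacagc
Apol10b: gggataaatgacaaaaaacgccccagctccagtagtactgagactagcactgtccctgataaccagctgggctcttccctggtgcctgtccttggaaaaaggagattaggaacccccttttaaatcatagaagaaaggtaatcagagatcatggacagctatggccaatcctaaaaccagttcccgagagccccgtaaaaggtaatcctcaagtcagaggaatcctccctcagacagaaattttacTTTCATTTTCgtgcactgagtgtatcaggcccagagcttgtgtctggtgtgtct
Apol9a: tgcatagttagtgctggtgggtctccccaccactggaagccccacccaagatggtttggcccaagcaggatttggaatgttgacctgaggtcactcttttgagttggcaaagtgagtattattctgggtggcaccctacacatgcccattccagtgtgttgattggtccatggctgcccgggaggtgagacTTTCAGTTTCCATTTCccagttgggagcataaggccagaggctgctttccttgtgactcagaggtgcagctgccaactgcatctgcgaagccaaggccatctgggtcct

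The response element core was present in 6 of the 9 members with a window. Of the 11 windows 8 held it, against 3.44% of the 32851 windows of all genes. Apol7c, Apol7e, Apol9a and Apol9b had 2 matches that overlapped by 4 bases, and Apol10a and Apol10b had 1. Apol7a, Apol7b and Apol8 had none in this window. The differences were 4.41 for Apol10a and 0.64 for Apol10b, 0.84 for Apol7c, and 2.11 for Apol7a and 0.15 for Apol8. Whether the matches bear on these differences was not tested. In Apol10a the match began at base -51 from the start, in Apol7c at -55 and in the Apol9a window shown at -59, whereas in Apol10b it began at -4 and ran across the start. The gamma-activated site was matched in Apol10a alone, at base -241, where 8.30% of all windows hold it. The 2 windows of Apol9a overlap, as do the 2 of Apol9b, so the same bases are counted in both windows of each gene. Windows of different members are also copies of each other in part, so the 8 windows with a match are not independent.

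The windows held few CpG dinucleotides, the site that Dnmt1 methylates. Their number ran from 0 to 7 with a median of 3, where the median of all windows was 7. Apol7c had 0 and Apol10a 1, and 14.1% of all windows had as few as Apol10a or fewer. Apol10b had 4, and Apol7a and Apol8 had 7 each. Whether the number of CpG bears on the differences was not tested. No methylation was measured in these samples. The windows of Apol7b and Apol7e were identical at 96.1% of aligned positions, while that of Apol10a was closest to Apol11b (89.0%) and Apol11a (88.4%), neither of which has a probe set named for it alone.

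Other genes of the family and the locus gave values that the choice of members did not use. Of 5 other Apol genes listed, 2 were measured, and neither passed the test (limma). Both had an unadjusted p under 0.05, as did 8330 of all 19938 genes. Apol7d, a non-coding gene outside the cluster, differed by -0.17 ± 0.06 (SE; limma, adjusted p = 0.0639), and Apold1, a related gene of endothelium on another chromosome, differed by -0.22 ± 0.08 (SE; adjusted p = 0.0723). Apold1 passed as lower without hypomethylated tumour 2, and both genes passed as lower with array weights and with the number in the descriptions as a random block. Over all genes these settings also let more pass, 7931 with array weights and 7941 with the random block, against 6380.

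The genes around the cluster had differences from -0.47 to 0.24. Of 17 measured neighbours, 8 on each side and Rbfox2 between Apol6 and Apol7a, 1 was higher and 5 were lower, 6 of 17 where 32.0% of all genes passed, with a median difference of -0.10. Rbfox2, a splicing factor, fell by 0.30 ± 0.06 (SE; limma, adjusted p = 0.0104), and the zinc finger gene Zfp647 fell by 0.47 ± 0.06 (adjusted p = 0.00229). Zfp251, Arhgap39 and the translation initiation factor gene Eif3d also fell, with differences of -0.26, -0.24 and -0.19, and the mitochondrial thioredoxin gene Txn2 rose by 0.19. The number passing was 1 without control tumour 1, 3 without control tumour 2, hypomethylated tumour 2 or hypomethylated tumour 3, and 4 without control tumour 3 or hypomethylated tumour 1. The calls of Txn2 and Eif3d were lost without any 1 tumour and those of Zfp251 and Rbfox2 without control tumour 1. That of Arhgap39 was lost without control tumour 1, control tumour 2, hypomethylated tumour 2 or hypomethylated tumour 3.

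**Figure D3:**
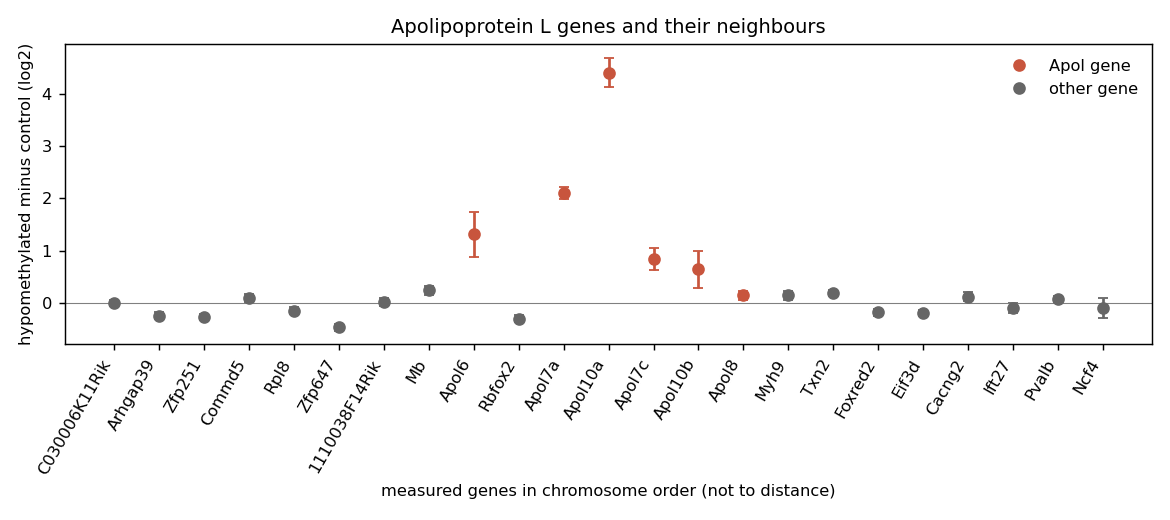
Difference between hypomethylated and control tumours (vertical axis, log2, bars are SE) for the measured Apol genes and their neighbours, in chromosome order but not spaced by distance. The neighbours lie between -0.47 and 0.24, on both sides of the Apol genes and at Rbfox2 among them.

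Genes of the interferon pathway were examined because several Apol genes are known interferon targets. These lists and the cell type lists below were chosen with earlier results of these data known. Their counts beside the shares of all genes are therefore a description. Among genes stimulated by type I and III interferons 14 of 24 measured rose and none fell, against 10.7% of all genes higher, with a median difference of 1.25 against -0.0058 over all genes. Oas3, an activator of the antiviral RNase L, rose by 2.30 ± 0.24 (SE; limma, adjusted p = 0.000891), and Ifit1 and Ifit2, which restrain viral translation, rose by 1.95 ± 0.44 (adjusted p = 0.0151) and 1.83 ± 0.37 (adjusted p = 0.00988). The antiviral genes Mx1 and Rsad2 had differences of 1.62 (adjusted p = 0.0822) and 1.19 (adjusted p = 0.191). Mx1 passed without hypomethylated tumour 2.

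Among GTPases and other targets of interferon gamma 7 of 18 rose and none fell, where 10.7% of all genes were higher and 21.3% lower. Their median difference was 0.65. The first genes of that list, Gbp5, Irgm1, Nlrc5, Gbp3 and Gbp4, did not pass, with differences of 0.45, 0.66, 0.51, 0.64 and -0.16 and adjusted p-values (limma) from 0.0697 to 0.879. Their SEs ran from 0.18 to 0.64, and Gbp5 and Gbp4 changed sign on leaving out a hypomethylated tumour, to -0.32 without tumour 1 for Gbp5, and to 0.30 without tumour 2 and 0.18 without tumour 3 for Gbp4. Irgm1 and Gbp3 passed as higher without hypomethylated tumour 2. Without hypomethylated tumour 1 the list held 2 lower genes, among them Gbp4 with a difference of -0.96.

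Of 23 measured ligands, receptors and signalling genes 8 rose, where 10.7% of all genes were higher, and 3 fell, where 21.3% of all genes were lower. The 3 lower genes were the receptor genes Ifnar1 and Ifnar2 and the inhibitor gene Socs3, of which Ifnar2 and Socs3 are named after their values were seen. Irf7, the transcription factor that amplifies interferon production, rose by 2.00 ± 0.27 (SE; limma, adjusted p = 0.00223) and Stat2 by 0.90 ± 0.19 (adjusted p = 0.0111). Irf1 rose by 0.48 ± 0.14 (adjusted p = 0.0371), a call lost without each tumour except hypomethylated tumour 3. Ifnar1 fell by 0.43 ± 0.08 (adjusted p = 0.00643), and Irf9 differed by -0.10 (adjusted p = 0.522). Lower genes numbered 1 without any control tumour or without hypomethylated tumour 3, and 2 without hypomethylated tumour 2.

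The 3 hypomethylated tumours ranked differently for these lists, and the members fell on different sides of that. These matches were seen in the values and are a description with no test. How many of all genes were highest in each tumour was not counted. Nothing is therefore read from these or the later counts of genes highest in a tumour. Of the 18 targets of interferon gamma 16 were highest in hypomethylated tumour 1, as were Apol6, Apol7c, Apol10b and both shared Apol7b and Apol7e probe sets, and the list's median was 1.08, -0.14 and 0.37 in hypomethylated tumours 1, 2 and 3. Of the 24 genes stimulated by type I and III interferons 21 were highest in hypomethylated tumour 3, as were both shared Apol9a and Apol9b probe sets, and the median was 0.66, 0.19 and 1.14. Control tumour 1 had the lowest median of both lists, -0.88 and -1.12, and the lowest value of Apol6, Apol7c and the shared Apol9a and Apol9b sets.

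Apol10a was highest in yet another tumour, hypomethylated tumour 2, at 2.91 against 2.71 in hypomethylated tumour 3. Of 18 genes listed for surface colonocytes, the mature absorptive cells of the colon, 16 were highest in hypomethylated tumour 2, as was Apol10a. Whether these genes are limited to such cells was not tested. The list's median was 0.96, 2.00 and 1.81 in hypomethylated tumours 1, 2 and 3. Of 10 general epithelial markers 8 were also highest in hypomethylated tumour 2, with medians of 0.14, 0.28 and 0.16. Of the surface colonocyte list, also chosen with earlier results known, 17 rose, where 10.7% of all genes were higher. The 1 gene of it that fell, where 21.3% of all genes were lower, was the sodium-proton exchanger gene Slc9a3, named after its values were seen. That call was lost without any 1 control tumour or without hypomethylated tumour 3. The list's median difference was 3.48, and Slc26a3, Krt20, Car4, Aqp8 and Cdx2 rose by 3.49 to 4.78 (limma, adjusted p from 0.000264 to 0.00708). The part of these cells in the Apol10a values was not tested. Apol7a was highest in hypomethylated tumour 3 (1.18), with 0.90 and 0.94 in hypomethylated tumours 1 and 2.

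**Figure D4:**
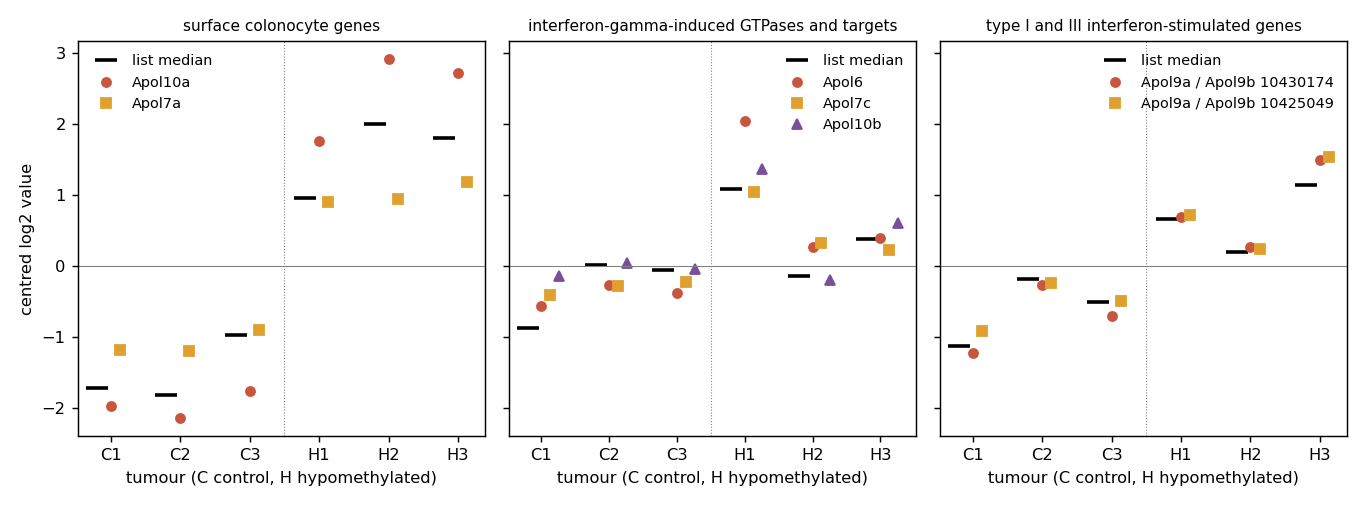
Centred log2 values (vertical axis) in each control (C) and hypomethylated (H) tumour for Apol genes or shared probe sets (symbols), beside the median of a gene list in the same tumour (black bars), in 3 panels grouped after the values were seen. In the left panel the list median and Apol10a peak in H2, whereas Apol7a peaks in H3. In the middle panel the list median and all 3 Apol genes peak in H1, at 1.08 for the list and 2.04 for Apol6, and in the right panel the list and both Apol9a / Apol9b sets peak in H3.

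The genes closest to Apol10a over the 6 tumours were also described by the mean absolute difference of their centred values, a measure that counts the size of a change as well as its shape. The 5 closest were Mettl7b (0.21), the chloride-bicarbonate exchanger gene Slc26a3 (0.24), the water channel gene Aqp8 (0.35), the cytochrome P450 gene Cyp2c65 (0.39) and the amino acid transporter subunit gene Slc3a1 (0.45), each over 6 tumours. Closeness in value to Apol10a requires a similar difference between the groups, so their differences of 3.51 to 5.20 follow from the choice. The closest other Apol gene, Apol7a, was at 1.15.

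Markers of the cell types that a tumour may hold were also counted, and their part in the Apol differences was not tested. Since levels are not kept, no marker can be called absent. Of 10 epithelial markers 8 rose and none fell, where 10.7% of all genes were higher and 21.3% lower, with a median difference of 0.34. The median per tumour was -0.15 to -0.13 in the controls and 0.14 to 0.28 in the hypomethylated tumours. It was highest in hypomethylated tumour 2, as were 8 of the 10 markers. Among them Epcam and Krt18 did not pass (0.06 and -0.02), Krt19, Krt8 and Cdh1 rose by 0.38, 0.26 and 0.18, and the calls of Cdh1 and Krt8 were lost without control tumour 1, that of Cdh1 also without any other tumour.

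Fibroblast markers fell in 8 of 12 cases and rose in 1, where 21.3% of all genes were lower and 10.7% higher. Their median difference was -0.62, with medians per tumour of 0.06 to 0.45 in the controls and -0.47 to -0.06 in the hypomethylated tumours. Pdgfrb, Pdgfra and Col1a1 fell, with differences of -1.22, -0.89 and -0.64, and Col1a2 and Col3a1 differed by -0.57 and -0.34 and passed as lower without control tumour 1 or hypomethylated tumour 1. Lower members numbered 5 without hypomethylated tumour 3, and Col1a1 was lost without control tumour 2, control tumour 3, hypomethylated tumour 2 or hypomethylated tumour 3. Endothelial markers fell in 8 of 12 and rose in 1, Tek (0.55), beside the same shares of all genes. Their median difference was -0.33, with medians of 0.07 to 0.19 against -0.42 to -0.06. Cdh5, Emcn and Kdr fell, with differences of -0.91, -0.91 and -0.38, and Pecam1 differed by -0.26, passing as lower without hypomethylated tumour 1. Lower members numbered 4 without control tumour 2 or 3, 5 without hypomethylated tumour 2 and 3 without hypomethylated tumour 3, and Kdr was lost in these same cases.

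Immune markers were counted as well. Of 11 dendritic cell markers 2 rose, Xcr1 (0.52) and Clec9a (0.34), and 2 fell, Fscn1 and Cd83, both named after their values were seen, 4 of 11 where 32.0% of all genes passed, while Itgax, Flt3 and Zbtb46 differed by -0.40, 0.0020 and -0.12 and did not pass. The median per tumour was 0.0019 to 0.17 in the controls and -0.17 to 0.03 in the hypomethylated tumours. Xcr1 was lost without control tumour 1 or 2 and Clec9a without each tumour except hypomethylated tumour 2. Of 12 macrophage markers 4 fell and 1 rose, Mertk, named after its values were seen, where 21.3% of all genes were lower and 10.7% higher. Their medians were -0.02 to 0.43 in the controls and -0.71 to 0.01 in the hypomethylated tumours. C1qb and Adgre1 fell, with differences of -0.94 and -0.83, and C1qa, Csf1r and Cd68 differed by -0.65 to -0.53. Lower macrophage markers numbered 8 without hypomethylated tumour 1 and 0 without any other tumour. Itgax also passed as lower without hypomethylated tumour 1.

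Of 12 T and NK cell markers none rose and 1 fell, Zap70, named after its values were seen, where 10.7% of all genes were higher and 21.3% lower. Cd3e, Cd3d, Cd3g, Cd4 and Cd8a differed by -0.30 to 0.37 without passing. Hypomethylated tumour 1 had the highest median of the T and NK cell list, 0.25, against -0.05 to 0.05 in the other tumours. Of the 12 markers 7 were highest in it, as were Apol6, Apol7c, Apol10b and the shared Apol7b and Apol7e probe sets. Among the hypomethylated tumours, tumour 1 also had the highest median of the dendritic cell (0.03), macrophage (0.01), endothelial (-0.06) and fibroblast (-0.06) lists. Without hypomethylated tumour 1, 3 T and NK cell markers fell, among them Cd3g, and without hypomethylated tumour 3 Cd8a passed as higher. The part of these cells in the Apol values was not tested.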

How the data were processed

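RNA of 6 mouse colon tumours, 3 control and 3 hypomethylated, was biotin-labelled and hybridised, per the labels' protocols; some sample descriptions name the Affymetrix mouse Gene 1.0 ST array. The deposited values formed 1 table of 28856 probe sets by 6 arrays and were read as log2 values, with every row median within 1e-06 of 0. How the arrays were normalized and summarised, and the log base, is not given in the sources used here, and every fold rests on base 2. No detection call was used, so a fold can understate a change.

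Gene symbols came from the platform annotation and were checked by Entrez number against RefSeq (GRCm38.p6): 21789 probe sets had 1 symbol, 1621 several and 5446 none. Probe sets with 1 symbol were averaged per gene, and 19856 of 19938 genes matched by Entrez number. Shared Apol probe sets were reported as pairs, with the SE from a fit over all probe sets.

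Groups follow the genotypes in the titles, which also number the tumours. limma's lmFit and eBayes, without block or trend, were fitted to all genes, two-sided, with Benjamini-Hochberg adjustment over all 19938. The members and the gene lists were chosen with earlier results of these data known. Named are all members, Dnmt1, the other measured Apol genes, the first 5 measured genes of each list, the neighbours that passed, and the 5 genes closest to Apol10a. Mb, Apol11a and Apol11b are named for their position or sequence, and others are marked. Apc is given in the closing section. Neighbours follow RefSeq gene order. Motifs and CpG were counted in RefSeq promoter windows, aligned with Biopython 1.88; proteins were not used here. The scripts were tested on simulated data. Alternatives were a replicate block, a random block, 2 normalizations, array weights, robust eBayes, 2 gene filters, a stricter threshold and leaving out each tumour. Arrays carry no counts, and 6 arrays limit the precision. R 4.3.3, limma 3.58.1, Python 3.11.15 and matplotlib 3.10.9 were used.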

Additional observations from a re-analysis of the deposited data

How the results depend on the processing

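The differences of the 6 Apol genes with their own probe set kept their sign under every alternative in which they were fitted. A level of 8 or above before centring was inferred only from the rounding steps of the numbers. It was not reached by all values of any of the 6 genes, so the filter on it gave no value for them. Their median difference was 0.97 to 1.09 under the other settings and 0.66 to 1.33 on leaving out 1 tumour, the lowest without hypomethylated tumour 1. Array weights, which ran from 0.51 to 7.69, let 5 of 6 members and 7931 of all genes pass. On leaving out 1 tumour 2 to 5 members passed. Over all genes 3511 passed at an adjusted p of 0.01 and 4199 to 6593 on leaving out 1 tumour; of the genes of all other lists 51 passed at 0.01 and 64 to 94 on leaving out 1 tumour, against 86. With the replicate number from the titles as a block 4257 genes passed against 6380, with 3 of 6 members and 2 of 17 neighbours; 1 to 4 neighbours passed on leaving out 1 tumour. Deviations of same-numbered tumours from their group means correlated at -0.31 to -0.22 over genes, and those of differently numbered tumours at 0.05 to 0.29. Deviations within a group cancel out by construction, so these values cannot settle whether the numbers pair the tumours. The number in the descriptions as a random block had an estimated correlation of -0.17 and gave 7941 genes. Some genes that did not pass changed sign. With array weights this held for Cd3d (-0.00021), Cd3e (0.0014), Cd4 (0.080), Flt3 (-0.060), Gbp4 (0.018) and Irf9 (0.014), and with the random block for Cd4 (0.0013). On leaving out 1 tumour the range crossed 0 for Cd3e (-0.38 to 0.037), Cd4 (-0.20 to 0.12), Flt3 (-0.072 to 0.077), Gbp4 (-0.96 to 0.30), Gbp5 (-0.32 to 1.01) and Krt18 (-0.049 to 0.029). The causes of these changes were not tested. Counts of promoter windows with the response element core were 7 of 11 when only the bases before the start were searched. Most shared limits come from the values: no level, no background signal and 6 arrays.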

Other observations

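The genes closest to the other members, by the same mean absolute difference of centred values over 6 tumours, were looked up after the values were seen. For Apol6 they were Ly6i (0.11), the ubiquitin-like gene Ubd (0.14), the nitric oxide synthase gene Nos2 (0.14), the guanylate-binding protein gene Gbp2b (0.20) and Il18bp (0.24), an inhibitor of interleukin 18. For Apol7c they were Msln (0.083), Il18bp (0.098), Slc9a4 (0.10), Wars (0.11) and Slc2a6 (0.12), and Apol6 and Apol7c were each other's closest Apol gene (0.25). For Apol10b they were Slfn2 (0.12), Gm8995 (0.14), Gm4841 (0.15), Lgi1 (0.16) and the interferon gamma gene Ifng (0.17). For Apol8 they were H2bl1 (0.017), Gm10847 (0.017), Klk7 (0.017), Glyctk (0.017) and Olfr921 (0.018). For Apol7a they were Pde11a (0.11), the carbonic anhydrase gene Car13 (0.12), Btnl2 (0.13), Chst4 (0.13) and the oxidase gene Duox2 (0.13). The distances shrink with the size of a gene's own values, so they are not comparable between members, and no test was made. Apc, mutated in all mice, differed by -0.23 ± 0.10 (SE; limma, adjusted p = 0.115) and passed as lower without hypomethylated tumour 1, where the difference was -0.34.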
